A study of Homo sapiens with 44 samples.

Results

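Levels of 10 imprinted genes were measured in RNA-seq libraries of A549, a human lung adenocarcinoma cell line: PEG10, SGCE, MEST, GRB10, MEG3, DLK1, H19, IGF2, PEG3 and NNAT. They are 10 of the 58721 genes counted, and they were chosen by their CPM (read counts scaled to library size) over the 12 groups of libraries, so their levels are given as a description, with no p-value, and counts of edgeR calls among them stand only beside the share of all genes called. The study compared lines in which p300, a histone acetyltransferase, was truncated at its TAZ2 domain with the parental line, in culture and as xenograft tumours. There are 44 libraries of polyA RNA in 3 separately deposited count tables.

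Cultured cells gave 3 libraries for each of het1, het2, homo and WT, names that the labels do not spell out and that are read here as 2 heterozygous lines, a homozygous line and parental A549. Tumours of the same 4 lines taken at day 30 gave 4 libraries each. Tumours treated for 4 weeks gave 4 libraries each for het1 with SAHA, het1 with DMSO, WT with SAHA and WT with DMSO, where SAHA is the histone deacetylase inhibitor vorinostat and DMSO its vehicle. Its dose and the host animals' strain and age are not in the labels used here. Each genotype name stands for 1 line, so genotype and line cannot be told apart. No label ties a library to its own culture or animal, and a p-value reflects how libraries varied, which may be technical variation.

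Imprinted genes are read from a single parental copy, under DNA methylation laid down in the egg or the sperm and kept by the methyltransferase DNMT1 and zinc-finger proteins with their corepressor TRIM28. Many control growth of the fetus and placenta, lie in clusters that share a control region, and can lose single-copy expression in tumours. PEG10 is a paternally expressed gene derived from a retrotransposon, and SGCE, which encodes epsilon-sarcoglycan, starts beside it and runs the other way under the same imprint.

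PEG10 (ENSG00000242265) lies on chromosome 7 at 94656325 to 94669695 on the plus strand, and SGCE (ENSG00000127990) at 94524204 to 94656572 on the minus strand (hg38, GENCODE 29). Their annotated spans overlap by 248 bases at their starts, and SGCE also overlaps CASD1. MEST (ENSG00000106484, 130486171 to 130506465, plus) and GRB10 (ENSG00000106070, 50590063 to 50793462, minus) are on chromosome 7 too. MEG3 (ENSG00000214548, 100779410 to 100861031, plus) and DLK1 (ENSG00000185559, 100725705 to 100738224, plus) are neighbours on chromosome 14, and H19 (ENSG00000130600, 1995176 to 2001470, minus) and IGF2 (ENSG00000167244, 2129112 to 2149603, minus) on chromosome 11. PEG3 (ENSG00000198300) is at 56810077 to 56840728 on the minus strand of chromosome 19, and NNAT (ENSG00000053438) at 37521206 to 37523693 on the plus strand of chromosome 20, inside BLCAP. The sources used here do not say whether reads were counted by strand, and genes with an antisense partner (MEST with MESTIT1, MEG3 with AL117190.2, NNAT with BLCAP) are uncertain where they overlap.

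RefSeq promoters (GRCh38.p14, 250 bases before to 50 after a start) were given for 4 of the 10 genes: MEG3, MEST, H19 and GRB10. No entry was given for PEG10, SGCE, PEG3, IGF2, DLK1 and NNAT. The 3 promoters below are shown because MEG3, MEST and H19 set the lines apart in different orders, and because their content of CG, the dinucleotide that DNA methylation marks, differs. They are MEG3 at chr14:100825858-100826157 on the plus strand, with the letters TGACGTCA in capitals, and MEST at chr7:130491835-130492134 on the plus strand and H19 at chr11:2001217-2001516 on the minus strand, both with every CG in capitals. Where a gene had several starts, the one with most CG is printed.
MEG3: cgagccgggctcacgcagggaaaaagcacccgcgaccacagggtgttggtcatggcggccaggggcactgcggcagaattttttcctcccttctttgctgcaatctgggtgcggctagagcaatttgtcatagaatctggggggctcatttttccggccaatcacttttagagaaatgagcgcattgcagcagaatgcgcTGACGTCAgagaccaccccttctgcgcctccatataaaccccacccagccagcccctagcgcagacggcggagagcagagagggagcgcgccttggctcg
MEST: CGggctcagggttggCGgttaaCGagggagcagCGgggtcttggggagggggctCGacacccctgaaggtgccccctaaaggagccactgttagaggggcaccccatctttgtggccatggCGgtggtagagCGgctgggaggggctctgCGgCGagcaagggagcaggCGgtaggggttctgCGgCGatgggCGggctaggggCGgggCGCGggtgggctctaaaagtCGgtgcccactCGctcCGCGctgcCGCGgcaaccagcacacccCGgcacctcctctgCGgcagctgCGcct
H19: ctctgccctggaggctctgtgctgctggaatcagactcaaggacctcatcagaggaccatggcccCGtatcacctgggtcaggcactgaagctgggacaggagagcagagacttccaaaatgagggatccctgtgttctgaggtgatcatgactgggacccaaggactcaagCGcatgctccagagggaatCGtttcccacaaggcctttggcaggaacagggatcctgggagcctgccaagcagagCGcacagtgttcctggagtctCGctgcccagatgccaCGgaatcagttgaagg
The MEG3 window held 19 CG, the MEST window 25 and the H19 window 6, beside a median of 14 over the 35116 promoters of the table. The GRB10 start with most CG held 49, a number that 1.6% of all promoters reached. These are the richest starts of each gene. Over all its starts MEG3 held 17 to 19 CG (3 starts), MEST 13 to 25 (5 starts) and GRB10 3 to 49 (5 starts). The poorest starts of MEST and GRB10 were thus below the median, and H19 had 1 start. TGACGTCA, the cAMP response element and its own reverse complement, began at base 201 of the MEG3 window, counted from its 5′ end, was in all 3 MEG3 entries, and was in 1.85% of all promoters (649). It was not found in the MEST, H19 and GRB10 windows. A match is a description of these letters, not of a bound site.

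Reads summed to 61168373 to 93444327 counts per library in cells, 63243289 to 99593214 in day 30 tumours and 61937591 to 82475298 in treated tumours. EP300, which encodes p300, averaged 185, 153 and 190.5 CPM in het1, het2 and homo cells and 115 CPM in WT cells; a count over the whole gene does not show the truncation. Of the 7 lung adenocarcinoma markers, NKX2-1, SFTPA1, SFTPB and SFTPC averaged under 1 CPM in all 12 groups. The others had highest group means of 1.63 CPM (NAPSA), 1.78 CPM (SFTPD) and 59.8 CPM (MUC1, lowest 2.0 CPM in WT cells). The 7 epithelial markers (EPCAM, CDH1, CLDN4 and 4 keratins) summed to 833 to 7103 CPM per library. All 7 epithelial markers were lower by edgeR's test in each mutant line than in WT, in cells and in day 30 tumours. Of all genes 30.8%, 33.3% and 35.1% were lowered in het1, het2 and homo cells. At day 30 these shares were 24.8%, 24.8% and 27.7%. Fibroblast marker sums were 51.3 to 74.3 CPM in mutant cells, against 9.93 to 11.1 CPM in WT cells. COL1A2, DCN, LUM, PDGFRB, FAP and COL6A3 averaged under 1 CPM in cells of every mutant line. COL1A1 averaged 14.5, 32.2 and 54.0 CPM in het1, het2 and homo cells, against 5.81 CPM in WT, and COL3A1 23.6 CPM in het1 cells. In cultures, which have no host, these sums are not a measure of host cells. The part of these markers in the results below was not tested. In bulk RNA, fewer cells of a type and less RNA per cell cannot be told apart. The treatment of host reads in the xenografts was not stated in the labels or the processing notes.

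PEG10 was higher in cells of every mutant line than in WT cells, and per kilobase of exon it was the most abundant of the 10 genes there, at 205, 148 and 105 RPKM in het1, het2 and homo cells and 65.9 RPKM in WT cells. The het1 cells held 1339.8, 1399 and 1333 CPM, the het2 cells 969, 982 and 987 CPM and the homo cells 689, 688 and 711 CPM, against 417, 445 and 449 CPM in WT cells. The 4 groups did not overlap, with het1 highest and WT lowest. The log2 fold change over WT was 1.63 ± 0.0267 in het1, 1.16 ± 0.0264 in het2 and 0.67 ± 0.0263 in homo cells (± SE, n = 3 libraries per group), which is 3.11-fold, 2.24-fold and 1.59-fold higher.

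The order of the lines was another in day 30 tumours, where het2 held almost no PEG10. Het2 tumours had 3.52, 4.57, 3.86 and 2.91 CPM, from 229 to 458 counts in each library, against 203, 211, 194 and 206 CPM in WT tumours. That is a log2 fold change of -5.77 ± 0.196 (SE, n = 4 each), or 54.8-fold lower than WT, and the highest het2 library was far below the lowest WT library. Het1 tumours had 756, 808, 768 and 762 CPM and homo tumours 662, 362, 621 and 437 CPM, all above the WT tumours. Their log2 fold changes over WT were 1.92 ± 0.159 and 1.35 ± 0.157. The homo tumours spread most, with an SD of 144 CPM against 23.3 CPM in het1 tumours.

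Set beside cells of the same line, a comparison of levels across 2 tables with no test, PEG10 was lower in tumours of all 4 lines. The tumour level was 0.57 of the cell level in het1, 0.748 in homo and 0.466 in WT. In het2 the tumours averaged 3.72 CPM and the cells 979 CPM, a level 264-fold lower in tumours. With all 44 libraries scaled together the het2 difference was 241-fold. Epithelial marker sums in the same het2 tumours were 4727 to 5329 CPM, against 6807 to 7103 CPM in WT tumours, and fibroblast marker sums were 109.7 to 357 CPM, against 225 to 371 CPM.

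Among treated tumours, het1 with DMSO had 829.6, 822, 747 and 772 CPM of PEG10, against 173, 234, 200.1 and 207 CPM in WT with DMSO. Their groups did not overlap, and the log2 fold change was 1.96 ± 0.122 (SE, n = 4 each), close to that of the day 30 tumours of the same lines. Het1 tumours with SAHA had 1018, 902, 998 and 976 CPM, all above the het1 DMSO tumours, with a log2 fold change of 0.3 ± 0.118 over DMSO. In WT tumours SAHA gave 227, 193, 319 and 232 CPM, overlapping DMSO, with a log2 fold change of 0.25 ± 0.118. Over the 12 groups PEG10 ran from 3.72 CPM in het2 day 30 tumours to 1357 CPM in het1 cells, a 365-fold range. The 3 WT tumour groups overlapped one another in that order, as did homo tumours with WT cells, het1 day 30 with het1 DMSO tumours, and het1 SAHA tumours with het2 cells.

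**Figure D1:**
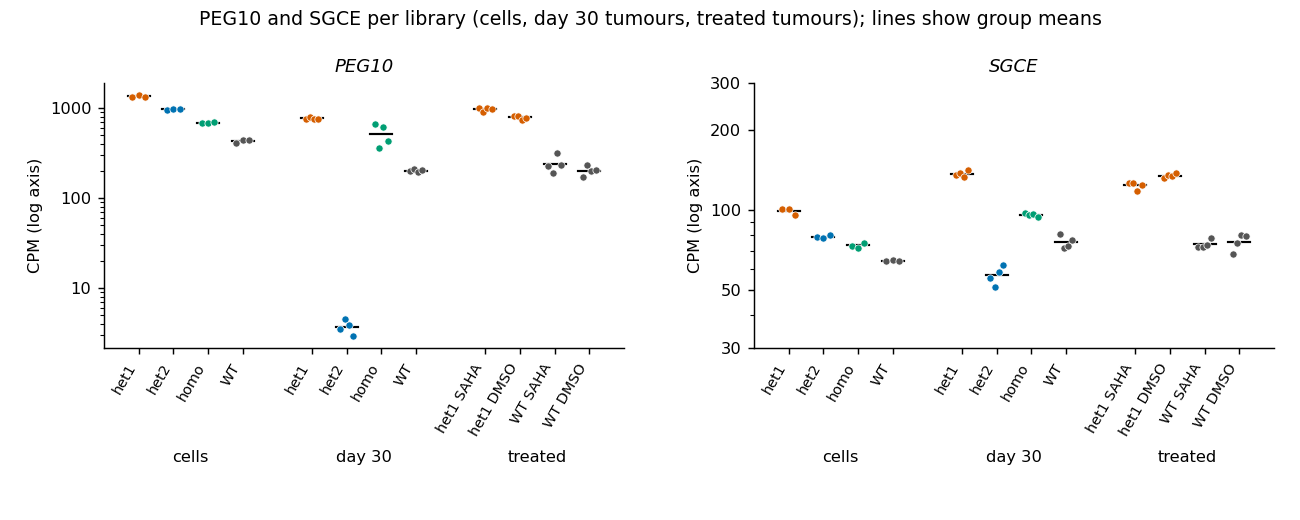
CPM of PEG10 (left) and SGCE (right) on log axes in each library (points) with group means (lines), for cells, day 30 tumours and treated tumours. PEG10 was 3.72 CPM in het2 day 30 tumours and 204 CPM in WT day 30 tumours, while SGCE stayed between 56.6 and 137 CPM over all groups.

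SGCE, whose protein spans the membrane as part of the sarcoglycan family, moved far less than PEG10. Het1 cells had 100.3, 101 and 95.8 CPM, het2 cells 78.6, 78.4 and 80.1 CPM and homo cells 73.3, 71.9 and 74.8 CPM, against 63.8, 64.5 and 64.3 CPM in WT cells. The lines kept the order they had for PEG10, again without overlap between neighbours. Log2 fold changes over WT were 0.63 ± 0.0315, 0.3 ± 0.0316 and 0.19 ± 0.032 (SE, n = 3 each).

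SGCE in day 30 tumours averaged 137 ± 3.85 CPM in het1, 56.6 ± 4.62 CPM in het2 and 95.8 ± 1.36 CPM in homo, against 75.6 ± 4.15 CPM in WT (SD, n = 4 each). The 4 het2 libraries held 55.2, 51, 58.3 and 61.9 CPM, below the lowest WT library of 71.9 CPM. The het2 log2 fold change over WT was -0.42 ± 0.0555 for SGCE, beside -5.77 for PEG10 in the same libraries. Het1 tumours with SAHA averaged 124 ± 3.6 CPM and with DMSO 134 ± 2.27 CPM, which did not overlap, and WT tumours averaged 74.1 ± 2.58 CPM with SAHA and 75.8 ± 5.75 CPM with DMSO, which did.

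Per kilobase of exon, PEG10 exceeded SGCE in every group but 1. The ratio of their RPKM within a library averaged 12.8 ± 0.272 in het1, 11.6 ± 0.113 in het2 and 8.87 ± 0.0764 in homo cells, against 6.36 ± 0.214 in WT cells (SD, n = 3 each). At day 30 the ratio was 5.29 ± 0.185 in het1 tumours, 0.0623 ± 0.0164 in het2 and 5.07 ± 1.35 in homo, against 2.52 ± 0.164 in WT (SD, n = 4 each). It was 7.36 ± 0.487 in het1 tumours with SAHA and 5.51 ± 0.319 with DMSO, without overlap (6.71 to 7.87 against 5.22 to 5.89). In WT tumours it was 3.06 ± 0.692 with SAHA and 2.51 ± 0.275 with DMSO, with overlap. PEG10 and SGCE thus differed from WT in the same direction in each line, and the difference was larger for PEG10.

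The genes around this pair were read from a list of 14 neighbours on both sides of it, CALCR at one end and DYNC1I1, which starts 1116.2 kb past PEG10, at the other. In cells 9 of the 11 that passed the filter rose and 1 fell in het1, 8 rose and 2 fell in het2, and 6 rose and 3 fell in homo, by edgeR's quasi-likelihood test with Benjamini-Hochberg adjustment over all genes. The shares of all 21704 genes raised and lowered were 32.0% and 30.8% in het1, 35.1% and 33.3% in het2, and 35.4% and 35.1% in homo cells. The list's median log2 fold change was 0.95, 0.67 and 0.71, beside 0.03, 0.02 and 0.01 over all genes. Where a gene named below from a list is said to rise or fall, it passed that test and its libraries did not overlap between line and WT, or SAHA and DMSO; genes named for the difference between the SAHA effects were not held to the overlap rule. PDK4, a kinase that inhibits pyruvate dehydrogenase and starts 940.2 kb past PEG10, rose to 721, 487 and 229.6 CPM in het1, het2 and homo cells, against 80 CPM in WT cells. TFPI2, a serine protease inhibitor gene on the other side, rose to 546, 1395 and 1439 CPM, against 238 CPM in WT cells. PON2, a paraoxonase gene, fell to 351, 297 and 178 CPM, against 412 CPM. It did not keep that direction in tumours: at day 30 it rose to 1027 CPM in het1 and 756 CPM in homo and fell to 548 CPM in het2, against 665 CPM in WT.

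Among the neighbours in day 30 tumours 7 of 13 rose and 2 fell in het1, 5 rose and 6 fell in het2, and 7 rose and 3 fell in homo. The shares of all 22533 genes were 26.8% raised and 24.8% lowered in het1, 24.4% and 24.8% in het2, and 27.1% and 27.7% in homo tumours. The medians were 0.63, -0.08 and 0.19, beside 0.02, -0.01 and 0.01 over all genes. PDK4 rose to 1025, 817 and 1000 CPM in het1, het2 and homo tumours, against 252 CPM in WT tumours, and ASB4, which encodes an ankyrin repeat and SOCS box protein, to 20.1, 14 and 14 CPM, against 2.02 CPM. In het2 tumours the genes nearest to PEG10 on either side fell: CASD1, a sialic acid acetyltransferase gene, was 37.5 CPM, against 49.6 CPM in WT (log2 fold change -0.4, edgeR adjusted p = 2.6e-06), and PPP1R9A, the gene of the actin-binding protein neurabin, was 41.8 CPM, against 86 CPM (-1.04, edgeR adjusted p = 3.75e-11). Of all 1120 tested chromosome 7 genes, read as a whole below, 48.0% fell in het2 tumours, with a median of -0.33. CALCR, the calcitonin receptor gene, rose in het1 tumours to 35.5 CPM, against 1.89 CPM in WT (4.23, edgeR adjusted p = 5.94e-09).

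**Figure D2:**
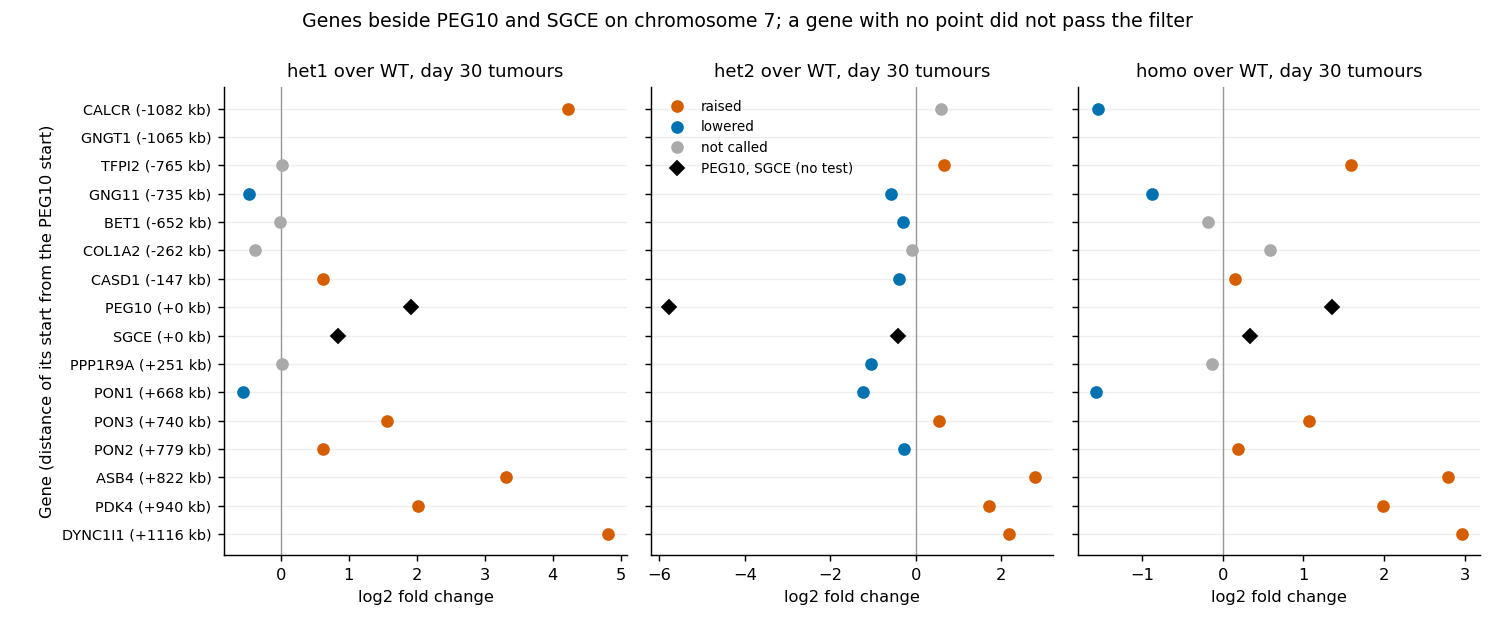
Log2 fold change of each line over WT in day 30 tumours (x axis) for PEG10, SGCE and 14 neighbouring genes (y axis, ordered by the distance of the gene's start from that of PEG10 in kb), coloured by edgeR call. In het2 tumours PEG10 stands at -5.77 while the 13 tested neighbours lie between -1.23 and 2.79.

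Genes whose group means over the 12 groups followed PEG10 or SGCE were sought among the 13124 other genes with at least 5 CPM in a group, by Pearson's r of log2(mean CPM + 0.5), as a description with n = 12 groups. For PEG10 the 5 highest were ZNF767P (0.926), ANKIB1 (0.912), CNOT4 (0.909), ZNF789 (0.902) and INPP5F (0.9). Like PEG10, all 5 had their lowest mean in het2 day 30 tumours, and their r without that group was not computed. For SGCE they were BCAP29 (0.952), ZSCAN21 (0.946), BRAF (0.937), PLOD3 (0.932) and UBE3B (0.93). Of each 5, 4 lie on chromosome 7 (all but INPP5F and UBE3B), while 4.98% of the genes searched do. PEG10 and SGCE had an r of 0.63 with each other over the 12 groups, and 0.56 without the het2 tumours.

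Because of these genes, all tested genes of chromosome 7 were read as a whole, a choice made after their values were seen. Their median log2 fold change over WT was 0.34 in het1 cells, 0.27 in het1 day 30 tumours and 0.29 in het1 DMSO tumours, and -0.33 in het2 day 30 tumours. It was -0.01 in het2 cells, 0.02 in homo cells and 0.0 in homo day 30 tumours. In het1 day 30 tumours 45.8% of the 1120 chromosome 7 genes rose and 15.2% fell, and in het2 day 30 tumours 10.8% rose and 48.0% fell. SGCE in het2 tumours (-0.42) was near that median, and SGCE in het1 tumours (0.85) was above it. Among the neighbours in het2 tumours, CASD1 (-0.4) was near the chromosome 7 median too, and PPP1R9A (-1.04) was below it. The median of the neighbours was 0.95, 0.67 and 0.71 in het1, het2 and homo cells. At day 30 it was 0.63, -0.08 and 0.19. PEG10 was beyond the median of chromosome 7 in all 3 lines, in cells and in tumours. The copy number of chromosome 7 was not analysed here. The part of the chromosome-wide shift in the levels of PEG10, SGCE, MEST, GRB10 and the neighbouring genes was not tested.

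MEST, a paternally expressed gene for a protein with the fold of alpha/beta hydrolases, was much higher than in WT in cells of het1 and homo, and close to WT in het2. Het1 cells had 89.8, 94.3 and 86.6 CPM and homo cells 69.2, 68.5 and 71.8 CPM, while het2 cells had 40.3, 38.3 and 38.6 CPM, against 34.6, 37.5 and 37.3 CPM in WT cells. Het1 and homo were 2.47-fold and 1.92-fold higher than WT, and het2 was 1.07-fold higher. MEST in day 30 tumours averaged 136 ± 2.85 CPM in het1, 75.9 ± 4.62 CPM in het2 and 118 ± 4.87 CPM in homo, against 94.3 ± 2.71 CPM in WT (SD, n = 4 each), and the 4 groups did not overlap. Levels were higher in tumours than in cells in all 4 lines, by 1.5-fold in het1, 1.94-fold in het2, 1.7-fold in homo and 2.59-fold in WT. SAHA and DMSO tumours had 129.6 ± 7.79 and 129 ± 6.34 CPM in het1, and 90 ± 2.42 and 89.8 ± 3.46 CPM in WT, overlapping in both lines.

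GRB10, an adaptor that binds the insulin and insulin-like growth factor receptors and limits their signal, differed little between cells except in homo. Het1 cells averaged 67 ± 2.68 CPM, het2 cells 68.7 ± 1.95 CPM and homo cells 49.5 ± 1.04 CPM, against 69 ± 1.6 CPM in WT cells (SD, n = 3 each). The lines parted in day 30 tumours: het1 had 255, 213, 213 and 171 CPM, het2 84.1, 80.4, 64.4 and 65.3 CPM and homo 47.6, 67, 46.8 and 56.5 CPM, against 127, 131, 139.5 and 138 CPM in WT. All het1 libraries were above WT and all het2 and homo libraries below it, with log2 fold changes of 0.67 ± 0.127, -0.86 ± 0.128 and -1.3 ± 0.129 (SE, n = 4 each). WT tumours with DMSO, in a table scaled on its own, averaged 233 ± 17.6 CPM. Het1 tumours with DMSO, at 208 ± 36.4 CPM, were not above them. With all 44 libraries scaled together, WT tumours averaged 237 CPM with DMSO and 136 CPM at day 30. The log2 fold change of het1 over WT was -0.16 ± 0.215 in DMSO tumours, beside 0.67 at day 30.

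MEG3, a maternally expressed long noncoding RNA, gave the widest range between the lines in cells among those of the 10 genes that averaged above 1 CPM in all 4 cell groups. Het2 cells had 98, 95 and 99.3 CPM and homo cells 69.6, 68.5 and 66.2 CPM, while het1 cells had 9.63, 8.83 and 11.3 CPM, against 13, 12.3 and 13.9 CPM in WT cells. Het2 and homo were 7.48-fold and 5.23-fold higher than WT, and het1 was 1.31-fold lower. In day 30 tumours het1 was the highest line, with 101, 84.3, 60.1 and 36.4 CPM, followed by homo with 31.2, 44.7, 36.7 and 32.8 CPM and het2 with 25.2, 20.1, 19.1 and 21.7 CPM, against 11.6, 11.4, 16.4 and 12.5 CPM in WT. The libraries of all 3 mutant lines were above those of WT. Beside cells of the same line, tumours held 7.09-fold more MEG3 in het1 and 4.52-fold less in het2, while WT was at 13.0 CPM in both.

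MEG3 was also the gene of the set with the largest SAHA difference in het1 tumours among those above 1 CPM. Het1 tumours with SAHA had 128, 155, 179 and 124 CPM, against 74.4, 68.7, 96.4 and 55.5 CPM with DMSO, and the groups did not overlap. The log2 fold change was 0.99 ± 0.194 (SE, n = 4 each), or 1.99-fold. WT tumours with SAHA had 25.5, 24.7, 42.9 and 27.1 CPM, against 26.7, 24.6, 26.3 and 28.4 CPM with DMSO, with a log2 fold change of 0.18 ± 0.198. The difference between these SAHA effects was 0.81 ± 0.276 on the log2 scale. Fibroblast marker sums did not overlap either, at 174 to 253 CPM in het1 tumours with SAHA and 124 to 144 CPM with DMSO, and the WT SAHA library with 42.9 CPM of MEG3 had the highest sum of all tumours, 532 CPM. Their part in the MEG3 levels was not tested. DLK1, a paternally expressed membrane protein that acts on Notch receptors and lies beside MEG3, was near the limit of detection, with 297 counts over all 44 libraries. In tumours it had 29, 12, 28 and 5 counts in het1 tumours with SAHA, against 3, 2, 1 and 1 with DMSO, and 9, 25, 11 and 11 counts in het2 at day 30, against 1, 4, 2 and 2 in WT. In cells it had 20, 32 and 38 counts in het2, 10, 1 and 6 in homo and 1, 0 and 0 in het1, and 0 counts in the 3 WT libraries. Het2 cells were thus at least 26.5-fold and homo cells at least 6.0-fold above the limit that 3 counts over the WT group set, and het2 was the line highest in both DLK1 and MEG3. DLK1 passed the filter on low counts in cells only.

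H19, a maternally expressed noncoding RNA that contains a microRNA, was lower than WT in mutant cells and higher than WT in mutant tumours. Het1 cells had 3.09, 3.22 and 3.67 CPM, het2 cells 1.13, 1.27 and 1.17 CPM and homo cells 2.88, 2.7 and 2.34 CPM, against 8.12, 6.9 and 6.84 CPM in WT cells. Log2 fold changes were -1.13 ± 0.107, -2.61 ± 0.121 and -1.46 ± 0.111 (SE, n = 3 each). In day 30 tumours het1 had 23.2, 22.1, 19.9 and 25.4 CPM, het2 42.2, 72.2, 20.9 and 67.9 CPM and homo 8.93, 12.6, 9.16 and 14.4 CPM, against 6.6, 5.07, 9.28 and 4.47 CPM in WT. Het1 and het2 did not overlap with WT, and homo did. The lowest line in cells, het2, was the highest in tumours, with a tumour level 42.7-fold above its cells; het1 was at 6.81-fold, homo at 4.28-fold and WT at 0.872-fold.

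IGF2, a paternally expressed growth factor of the fetus that shares the H19 control region, was low throughout. Another annotated IGF2 identifier had 0 counts in all libraries, and IGF2 overlaps INS-IGF2 and IGF2-AS, so its counts are uncertain. Het1 day 30 tumours had 5.57, 5.75, 2.76 and 2.6 CPM, het2 0.716, 1.15, 0.281 and 1.04 CPM and homo 0.491, 0.825, 0.654 and 0.607 CPM, against 0.253, 0.0745, 0.209 and 0.278 CPM in WT. All mutant libraries were above those of WT, and the het1 mean was 20.5-fold higher, with a log2 fold change of 4.33 ± 0.435 (SE, n = 4 each). Het1 tumours with DMSO repeated that level at 3.6 ± 0.278 CPM, against 0.213 ± 0.196 CPM in WT with DMSO, and SAHA gave 3.31 ± 0.49 CPM in het1 and 0.167 ± 0.046 CPM in WT. In cells het1 averaged 0.483 ± 0.143 CPM, het2 0.092 ± 0.0384 CPM and homo 0.371 ± 0.142 CPM, against 0.128 ± 0.0643 CPM in WT (SD, n = 3 each). Within the het2 tumours H19 and IGF2 had their lowest level in the same library (replicate 3, 20.9 and 0.281 CPM). That library had a fibroblast marker sum of 227 CPM. Its endothelial marker sum was the lowest of the het2 tumours, 7.33 CPM, beside 9.55 to 10.1 CPM in the others. Its skeletal muscle marker sum was the highest, 31.5 CPM, beside 4.47 to 9.89 CPM. The library with the lowest fibroblast sum, 109.7 CPM, had 67.9 CPM of H19 and 1.04 CPM of IGF2. The part of host cells in the tumour levels of H19 and IGF2 was not tested.

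PEG3, a paternally expressed zinc-finger gene, had 8 counts over 44 libraries and 0 counts in 37 of them. It was at 0 in all 12 libraries of cells, where 3 counts over the WT group would be 0.0136 CPM, and its highest level was 0.028 CPM in a homo day 30 tumour. NNAT, which encodes a small membrane protein of the developing brain, averaged 0.253 to 1.16 CPM per group and lies inside BLCAP on the other strand. Het1, het2 and homo cells had 0.295 ± 0.116, 0.279 ± 0.0665 and 0.253 ± 0.0246 CPM, against 0.675 ± 0.168 CPM in WT cells (SD, n = 3 each), without overlap. The lines differed from WT in opposite directions in day 30 tumours: het1 had 0.411 ± 0.175 CPM, het2 0.333 ± 0.163 CPM and homo 1.16 ± 0.142 CPM, against 0.689 ± 0.159 CPM in WT (SD, n = 4 each). Homo did not overlap with WT, and het1 and het2 did. Their log2 fold changes over WT were -0.75 ± 0.301, -1.04 ± 0.302 and 0.75 ± 0.281 (SE) in het1, het2 and homo. Het1 tumours with DMSO had 0.397 ± 0.0942 CPM of NNAT, against 0.983 ± 0.241 CPM in WT with DMSO, without overlap.

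**Figure D3:**
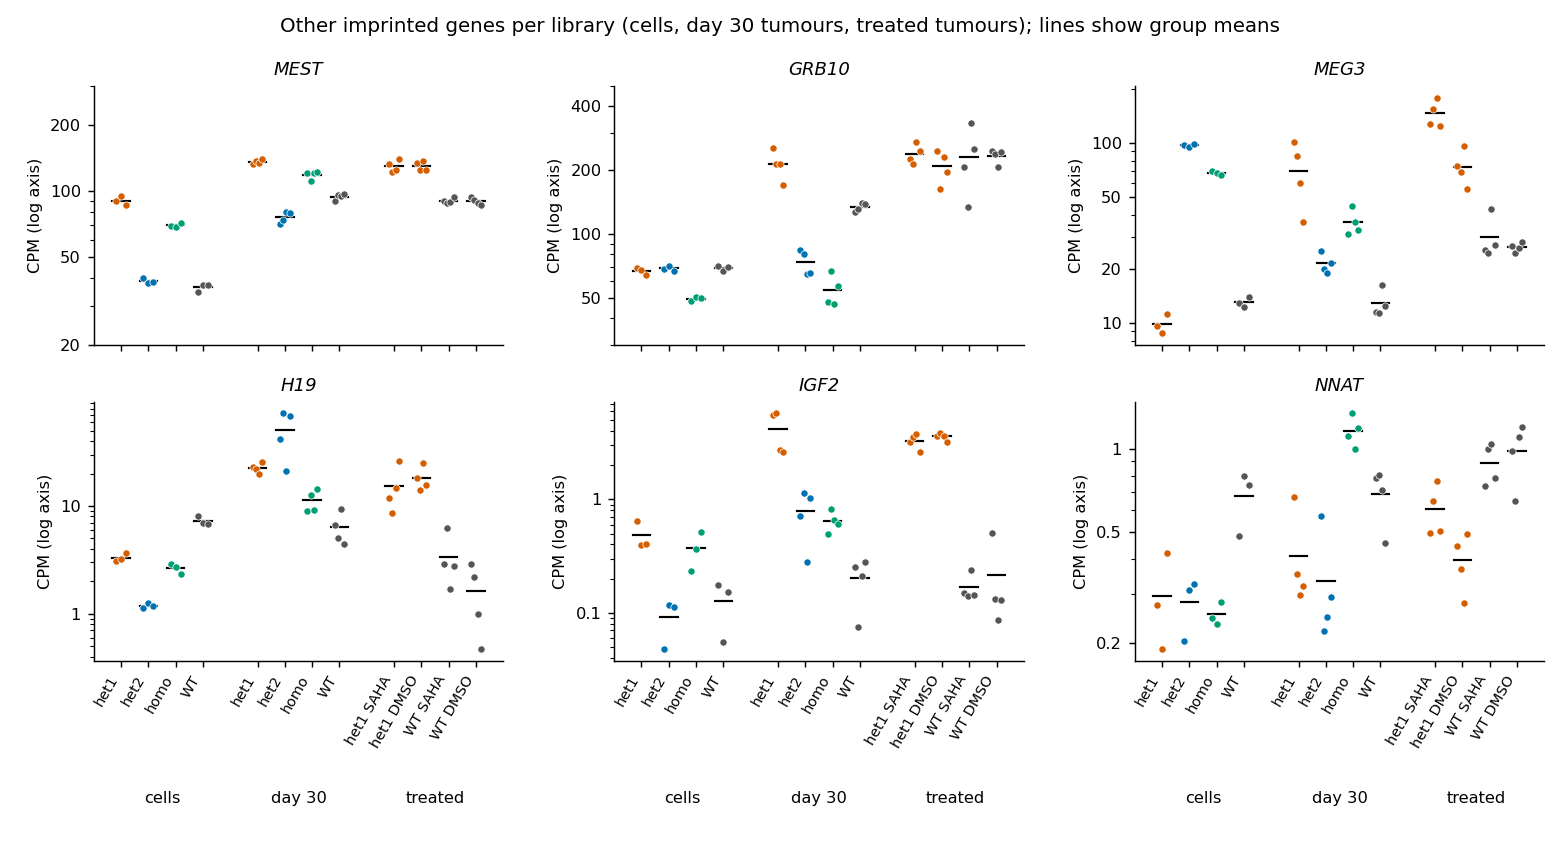
CPM of MEST, GRB10, MEG3, H19, IGF2 and NNAT on log axes in each library (points) with group means (lines), by line and table. H19 in het2 is 1.19 CPM in cells and 50.8 CPM in day 30 tumours, and MEG3 in het2 is 97.4 CPM in cells and 21.5 CPM in tumours.

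**Figure D4:**
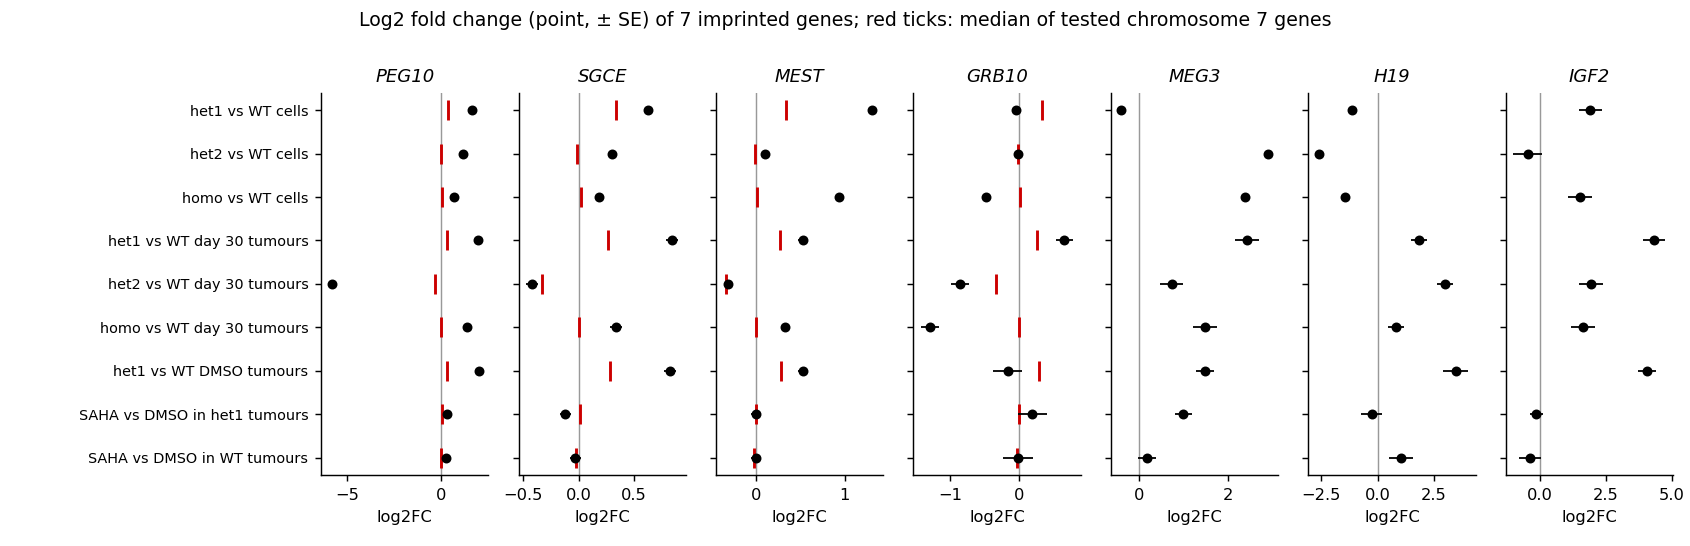
Log2 fold change (points, with SE as bars) of 7 imprinted genes (panels) in 9 comparisons (rows), with red ticks for the median of the tested chromosome 7 genes in the panels of genes on that chromosome. PEG10 lies beyond the tick in each comparison of a mutant line with WT, at -5.77 in het2 day 30 tumours and 1.92 in het1 day 30 tumours.

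Of the 10 genes, 9 passed the filter and were tested in cells and 8 in tumours. By edgeR's rule, 4 of the 9 were raised and 3 lowered in het1 cells, 5 and 2 in het2 cells and 6 and 3 in homo cells. In day 30 tumours 7 of the 8 were raised and 1 lowered in het1, 3 and 5 in het2 and 6 and 1 in homo. Of all genes tested, 62.8%, 68.5% and 70.5% were called in cells and 51.5%, 49.2% and 54.8% at day 30. Of het1 against WT tumours with DMSO, 6 of the 8 were raised and 1 lowered, where 27.3% and 26.8% of all 22586 genes were. These counts stand beside the shares above, and nothing is read from them because the same levels chose the genes.

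A list of 44 other imprinted genes was tested. Of the 37 that passed the filter, 17 rose and 11 fell in het1, 23 rose and 8 fell in het2, and 27 rose and 8 fell in homo cells, with a median log2 fold change of 0.34, 0.73 and 0.68, beside 0.03, 0.02 and 0.01 over all genes. The shares called were 75.7%, 83.8% and 94.6%, beside 62.8%, 68.5% and 70.5% of all genes. ZDBF2, a paternally expressed zinc-finger gene, rose to 88 CPM in het1 and 119.6 CPM in homo cells, against 23.8 CPM in WT cells (log2 fold change 1.88 and 2.32, edgeR adjusted p = 1.99e-27 and 3.01e-30). NDN, the paternally expressed gene of necdin, rose in homo cells to 7.91 CPM, against 0.0753 CPM in WT (6.65, edgeR adjusted p = 6.63e-23), and CPA4, a carboxypeptidase gene near MEST, rose in het2 cells to 40.9 CPM, against 4.31 CPM (3.25, edgeR adjusted p = 9.55e-28). MEG8, a noncoding gene beside MEG3, rose in het2 cells to 5.46 CPM, against 1.04 CPM (2.38, edgeR adjusted p = 1.71e-16). ATP10A, which encodes a phospholipid flippase, fell in all 3 lines, to 0.564, 0.24 and 0.0902 CPM in het1, het2 and homo cells, against 19.8 CPM in WT cells. PHLDA2, a maternally expressed gene that limits placental growth, fell to 12, 4.28 and 4.53 CPM, against 17.3 CPM. In day 30 tumours PHLDA2 rose instead, to 10.6 CPM in het1 and 16.1 CPM in het2, against 7.7 CPM in WT, and was not called in homo, at 8.91 CPM.

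Of 36 other imprinted genes tested in day 30 tumours, 12 rose and 11 fell in het1, 8 rose and 10 fell in het2, and 17 rose and 8 fell in homo, with medians of 0.02, 0.05 and 0.19. The shares called were 63.9% in het1 and 69.4% in homo, beside 51.5% and 54.8% of all genes. In het2 18 of 36 were called, close to the 49.2% of all genes. ZDBF2 rose to 48.5, 49.8 and 63.1 CPM in het1, het2 and homo tumours, against 20.5 CPM in WT tumours. ATP10A fell to 6.64, 4.87 and 8.02 CPM, against 26 CPM. PLAGL1, a zinc-finger regulator of growth genes, fell to 6.66, 13 and 9.48 CPM in het1, het2 and homo tumours, against 16.4 CPM; in cells it fell to 5.57 CPM in het1 and rose to 15.4 CPM in het2 and 11.7 CPM in homo, against 9.34 CPM in WT. In DMSO tumours 17 of 38 rose and 5 fell in het1 (median 0.19, beside 0 over all genes). That is 57.9% of those tested, beside 54.0% of all genes. There PLAGL1 fell to 7.51 CPM, against 19.5 CPM in WT, and TFPI2 fell to 131 CPM, against 209 CPM.

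SAHA called 0 of 22586 genes in WT tumours by edgeR (0.0% raised and 0.0% lowered), with 1911 at an unadjusted p under 0.05 and 155 called by DESeq2. None of the 10 genes and none of the 44 other imprinted genes was called there (1 and 2 at an unadjusted p under 0.05; 0 and 1 by DESeq2). In het1 tumours 7.68% of all genes rose and 9.15% fell with SAHA, and 1 of the 10 genes, MEG3, was raised. Of the other imprinted genes 8 of 38 rose and 4 fell, with a median log2 fold change of 0.02, as over all genes. TFPI2 rose to 207 CPM with SAHA, against 131 CPM with DMSO (0.66, edgeR adjusted p = 0.00614), and PPP1R9A fell to 73.8 CPM, against 113 CPM (-0.61, edgeR adjusted p = 8.5e-06). INPP5F, an inositol phosphatase gene, rose to 38 CPM, against 29.1 CPM (0.39, edgeR adjusted p = 0.00103). The difference between the SAHA effects passed for 2.01% of all genes as higher and 2.71% as lower in het1, for 0 of the 10 genes (2 at an unadjusted p under 0.05, 0 by DESeq2), and for PPP1R9A (-0.7, edgeR adjusted p = 0.000452), TFPI2 (0.76, edgeR adjusted p = 0.0458) and CDKN1C (1.38, edgeR adjusted p = 0.0146) of the other imprinted genes. CDKN1C, an inhibitor of the cell cycle named after its values were seen, had 3.32 CPM with SAHA and 2.38 CPM with DMSO in het1 tumours, and 1.03 CPM with SAHA and 1.93 CPM with DMSO in WT tumours. The TFPI2 call held without WT SAHA replicate 6, het1 DMSO replicate 2, het1 DMSO replicate 4 or het1 SAHA replicate 2, and was lost without each of the other 12 libraries.

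Of the lists described next, SAHA in WT tumours called 0 genes by edgeR: 3 imprint factors, 0 retrotransposon-derived genes, 1 sarcoglycan gene, 4 genes of the IGF2 axis, 0 Notch genes and 1 of the 7q21 neighbours were under an unadjusted p of 0.05, and DESeq2 called 1 imprint factor and none of the others. In het1 tumours SAHA raised 1 and lowered 2 imprint factors, raised 1 retrotransposon-derived gene, lowered 1 sarcoglycan gene, raised 1 gene of the IGF2 axis, raised 2 and lowered 1 Notch genes, and raised 2 and lowered 2 of the neighbours. In that order the shares called were 18.8%, 11.1%, 8.33%, 6.25%, 23.1% and 30.8% of those tested, beside 16.8% of all genes. Several of these calls were lost under other settings. Of 14 alternatives, 8 of which leave out 1 library, RTL8C lost its call in 10, NOTCH2 and JAG1 in 8 each, JAG2 in 7 and TET3 in 5. Among the neighbours ASB4 rose to 49.4 CPM with SAHA, against 24 CPM with DMSO (1.04, edgeR adjusted p = 0.00103).

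Of 20 factors that set or keep imprints, 16 passed the filter. In cells 68.8%, 68.8% and 75.0% of them were called in het1, het2 and homo, beside 62.8%, 68.5% and 70.5% of all genes, and in day 30 tumours 68.8%, 62.5% and 31.2%, beside 51.5%, 49.2% and 54.8%. In cells 2 rose and 9 fell in het1, 0 rose and 11 fell in het2, and 4 rose and 8 fell in homo, with medians of -0.17, -0.28 and -0.16. At day 30, 1 rose and 10 fell in het1, 2 rose and 8 fell in het2, and 1 rose and 4 fell in homo, with medians of -0.21, -0.19 and -0.04. The medians over all genes were 0.03, 0.02 and 0.01 in cells and 0.02, -0.01 and 0.01 in tumours. TET3, a dioxygenase that oxidises methylated cytosine, fell in each, to 31.3, 21.3 and 29.2 CPM in het1, het2 and homo cells, against 53.6 CPM in WT cells, and to 27.8, 21.6 and 37.1 CPM in tumours, against 49.6 CPM. UHRF1, which brings DNA methyltransferase 1 to newly copied DNA, fell to 67.8, 54.1 and 62.5 CPM in het1, het2 and homo cells, against 95.9 CPM. DNMT3A, a methyltransferase that sets new marks, rose to 32.6 CPM in het1 and 31 CPM in homo cells, against 25.1 CPM, and fell in het2 tumours to 32.9 CPM, against 61.3 CPM. In DMSO tumours 3 rose and 5 fell in het1, and 8 of 16 were not called, while 54.0% of all genes were called.

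Of 11 genes related to PEG10 by their retrotransposon origin, 9 passed the filter. In cells 3 rose and 2 fell in het1, 4 rose and 4 fell in het2, and 6 rose and 2 fell in homo, and in day 30 tumours 4 rose and 5 fell, 3 rose and 2 fell, and 3 rose and 5 fell. The shares called in cells were 55.6%, 88.9% and 88.9%, beside 62.8%, 68.5% and 70.5% of all genes. At day 30 all 9 were called in het1, beside 51.5% of all genes. In het2 and homo tumours 55.6% and 88.9% were called, beside 49.2% and 54.8%. RTL5, a Gag-like gene, rose in all 3 lines, to 27.8, 23.2 and 35.7 CPM in het1, het2 and homo cells, against 6.5 CPM in WT cells, and to 16.1, 9.32 and 18.1 CPM in tumours, against 4.44 CPM. RTL6 fell in all 3, to 35.5, 44.2 and 40.3 CPM in het1, het2 and homo tumours, against 55 CPM in WT tumours. LDOC1 fell in het1 tumours to 26.4 CPM and rose in het2 tumours to 62.1 CPM, against 46.3 CPM; in cells it rose in het2 and homo, to 71.6 and 76.8 CPM, against 44.2 CPM in WT. In DMSO tumours 4 rose and 5 fell in het1, all 9 of those tested, beside 54.0% of all genes.

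Of the 14 genes of the sarcoglycan and dystroglycan complex to which SGCE is related, 12 passed the filter in cells. There 4 rose and 6 fell in het1, 7 rose and 3 fell in het2, and 7 rose and 4 fell in homo. That is 83.3%, 83.3% and 91.7% of those tested, beside 62.8%, 68.5% and 70.5% of all genes. SGCD, the gene of delta-sarcoglycan, fell in all 3 lines, to 7.66, 2.42 and 0.75 CPM in het1, het2 and homo cells, against 23.6 CPM in WT cells. SSPN, the gene of sarcospan, rose to 6.71 CPM in het1 and 6.91 CPM in homo cells, against 0.43 CPM. DAG1, the gene of dystroglycan, fell to 202, 244 and 232 CPM in het1, het2 and homo cells, against 273 CPM. Day 30 tumours gave 13 such genes, of which 3 rose and 5 fell in het1, 5 rose and 4 fell in het2, and 6 rose and 3 fell in homo, and in DMSO tumours 3 of 12 rose and 5 fell in het1. The shares called at day 30 were 61.5%, 69.2% and 69.2%, beside 51.5%, 49.2% and 54.8% of all genes. In DMSO tumours the share was 66.7%, beside 54.0%. With SAHA 1 of 12 fell in het1, SGCD, to 7.93 CPM, against 14.4 CPM with DMSO (-0.86, edgeR adjusted p = 0.00282).

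In the IGF2 axis, 7 of 15 genes rose and 8 fell in het1 cells, 6 rose and 8 fell in het2 cells, and 5 rose and 8 fell in homo cells. All 15 were thus called in het1 cells, beside 62.8% of all genes. In het2 and homo cells 93.3% and 86.7% were called, beside 68.5% and 70.5%. INSR, the insulin receptor gene, rose to 36.9, 30.5 and 39.3 CPM in het1, het2 and homo cells, against 15.6 CPM in WT cells, and IGFBP3, a binding protein of insulin-like growth factors, fell to 4, 99.7 and 13.9 CPM, against 303 CPM. In day 30 tumours 4 of 16 rose and 7 fell in het1, 4 rose and 7 fell in het2, and 4 rose and 10 fell in homo. The shares called were 68.8%, 68.8% and 87.5%, beside 51.5%, 49.2% and 54.8% of all genes. IGFBP3 fell to 253 CPM in het1 and 193 CPM in homo tumours, against 1074 CPM in WT tumours, and IGFBP1, another such binding protein, fell to 6.41, 41.5 and 9.53 CPM in het1, het2 and homo tumours, against 82.7 CPM. IGF2BP1, which binds IGF2 and other transcripts, rose to 251, 212 and 277 CPM, against 173 CPM, while in cells it fell to 258 CPM in het1 and 199 CPM in het2, against 269 CPM in WT. In DMSO tumours 7 rose and 8 fell in het1, 93.8% of those tested, beside 54.0% of all genes.

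Among 13 Notch genes, listed because DLK1 acts on Notch receptors, 6 rose and 3 fell in het1 cells, 7 rose and 2 fell in het2 cells, and 7 rose and 4 fell in homo cells. That is 69.2%, 69.2% and 84.6% of those tested, beside 62.8%, 68.5% and 70.5% of all genes. In day 30 tumours 3 rose and 5 fell in het1, 4 rose and 5 fell in het2, and 5 rose and 7 fell in homo, and in DMSO tumours 5 rose and 4 fell in het1. The shares called at day 30 were 61.5%, 69.2% and 92.3%, beside 51.5%, 49.2% and 54.8% of all genes. In DMSO tumours the share was 69.2%, beside 54.0%. JAG1, a ligand, fell to 45.4, 125 and 23.4 CPM in het1, het2 and homo cells, against 210.3 CPM in WT cells, and to 89.5, 87.7 and 78 CPM in tumours, against 216 CPM. NOTCH1, a receptor, fell to 15.1, 12.4 and 16 CPM in het1, het2 and homo cells, against 28.3 CPM, and to 14.7, 13.7 and 13.4 CPM in tumours, against 35 CPM.

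Markers of other cells were read beside the tumour levels. The fibroblast markers are not specific to host cells, as mutant cells in culture had sums of 51.3 to 74.3 CPM. Sums of 11 fibroblast markers per library were 118 to 300.3 CPM in het1, 109.7 to 357 CPM in het2 and 326 to 502 CPM in homo day 30 tumours, against 225 to 371 CPM in WT, overlapping WT in each line. Sums of 9 endothelial markers were 2.37 to 3.36 CPM in het1, 7.33 to 10.1 CPM in het2 and 6.44 to 7.32 CPM in homo tumours, against 3.3 to 4.1 CPM in WT. Those of 8 myeloid markers were 13.4 to 16.6, 25.3 to 31.6 and 17.4 to 20.7 CPM, against 32.8 to 46.1 CPM. Among the myeloid markers LYZ fell to 6.47, 16.1 and 9.06 CPM, against 31.5 CPM in WT. CD14 rose instead, to 5.36, 9.57 and 5.94 CPM, against 2.61 CPM. Of 6 myeloid markers tested, 1 rose and 3 fell in het1, 1 rose and 2 fell in het2, and 3 rose and 1 fell in homo. Of all genes 51.5%, 49.2% and 54.8% were called. Fibroblast sums were 124 to 144 CPM in het1 tumours with DMSO and 255 to 369 CPM in WT tumours with DMSO, and PTPRC, a marker of blood cells, averaged under 1 CPM in every group. Sums of 9 skeletal muscle markers ran from 2.4 to 212 CPM per tumour library and overlapped between all groups. The part of these cells in the results above was not tested.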

How the data were processed

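The authors deposited read counts per gene in 3 tables (cells, day 30 tumours, treated tumours), made with bcl2fastq, HISAT2 and HTSeq on hg38, per the submitters' processing notes, which give no versions. Libraries were made with a stranded mRNA kit, per the labels' protocols; the strand setting of the counting was not stated there. All 58721 identifiers matched GENCODE 29. CPM used TMM library sizes within a table, and RPKM the merged exon length. Library totals ran from 61168373 to 99593214 counts, and intervals and limits from them cover counting error only.

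The 3 tables were fitted separately with edgeR 4.0.16 (filterByExpr, TMM, robust quasi-likelihood test, all groups of the table in the fit), in R 4.3.3, with Benjamini-Hochberg adjustment over all genes tested and a threshold of 0.05. An SE is the size of the log2 fold change divided by the square root of its F statistic. Cells and tumours are in separate tables and were not tested against each other. The fit was tested on simulated data. Alternatives were DESeq2 1.42.0, other scalings, other filters, the compared groups alone, a replicate block and leaving out each library.

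The 10 genes and all lists were chosen with earlier results of these data known. From each list the text names called genes with at least 5 CPM in the higher group and no overlap of libraries (not used for the difference between SAHA effects), up to 3 per direction; other comparisons of a gene so named, and CDKN1C, were added after their values were seen. Of 60 pairs of replicates, 0 were identical.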

Additional observations from a re-analysis of the deposited data

Results flagged for a closer look

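Of 76 sets of 4 libraries (a gene of the 10 in a tumour group), 9 had 1 library far from the other 3, where chance gives about 1 in 20. SGCE had 77.9 CPM in WT SAHA replicate 8, above 72.5 to 73.4 CPM in the others. MEG3 had 42.9 CPM in WT SAHA replicate 6, above 24.7 to 27.1 CPM, and IGF2 had 0.236 CPM in the same library, above 0.139 to 0.15 CPM. IGF2 had 0.505 CPM in WT DMSO replicate 2, above 0.0854 to 0.133 CPM, and GRB10 had 207 CPM in WT DMSO replicate 7, below 239 to 245 CPM. NNAT had 0.671 CPM in het1 day 30 replicate 1, above 0.297 to 0.355 CPM. PEG3 had 0.028 CPM (2 counts) in homo day 30 replicate 1 and 0.0139 CPM (1 count) in het1 DMSO replicate 2, with 0 in the others, and 0.0 CPM in WT SAHA replicate 4, where the others had 1 count each.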

How the results depend on the processing

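The comparisons of mutant lines with WT kept their counts of all genes called within 1.5 times under every alternative run, and no called log2 fold change of the 10 genes changed sign, but single calls among the 10 were lost: NNAT in het1 day 30 tumours in 7 of 14 alternatives and in homo day 30 tumours in 5, MEG3 in het2 day 30 tumours in 6, and MEST in het2 cells in 2 of 12. For SAHA in WT tumours edgeR called 0 genes, DESeq2 155, edgeR without a filter on low counts 36, and leaving out 1 library gave 0 to 170 (170 without WT DMSO replicate 3, 27 without WT SAHA replicate 4, 1 without WT DMSO replicate 2 or WT SAHA replicate 6); of the other imprinted genes DESeq2 called 1. For SAHA in het1 tumours a replicate block gave 812 genes, beside 3801, and 2 other imprinted genes, beside 12. For the difference between the SAHA effects edgeR called 1066 genes, DESeq2 1792 and the replicate block 19; leaving out 1 library gave 542 (without het1 SAHA replicate 1) to 1677 (without WT SAHA replicate 6), and it also moved by over 1.5 times without WT SAHA replicate 3, WT DMSO replicate 7, het1 DMSO replicate 3 or 5, or het1 SAHA replicate 3. Of the other imprinted genes there, DESeq2 called 5 and the block 0, beside 3. Calls among the 10 genes were also gained. H19 in homo day 30 tumours was called in 4 of 14 alternatives, DESeq2 among them. PEG10 was called for SAHA in het1 tumours in 1 of 14, with the compared groups alone. MEG3 was called for the difference between the SAHA effects in 1 of 21, without WT SAHA replicate 6. The causes of these shifts were not tested. Same-numbered libraries had residual correlations of -0.13 to 0.11, beside -0.24 to 0.21 for libraries of other numbers. The labels do not say what the numbers stand for. Whether same-numbered libraries share an animal or a batch cannot be told from these values. With the block MEG3, TFPI2, NOTCH2, JAG1, JAG2, RTL8C and TET3 were no longer called for SAHA in het1 tumours. Nor were CDKN1C, PPP1R9A and TFPI2 for the difference between the SAHA effects, nor NNAT in het1 and homo day 30 tumours. Of log2 fold changes of the 10 genes, 464 moved by less than 1 SD between libraries and 10 by more, and with 1 library left out 638 and 36. Scaling all libraries together or without TMM moved 26 group levels by more than 1 SD and 214 by less. DLK1, PEG3, IGF2 and NNAT are limited by depth.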
